A study of Mus musculus with 206 samples.

Results

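The semaphorins, plexins, ephrins and Eph receptors of the mouse were followed across 4 brain regions and 4 treatment groups through the histone mark H3K27ac. Members were chosen by symbol alone, as the protein-coding genes of the GENCODE M21 annotation (mm10) whose names start with Sema, Plxn or Efn, or with Epha or Ephb and a number. This gave 51 of 21853 protein-coding genes, namely 20 semaphorins, 9 plexins, 5 ephrin-A ligands, 3 ephrin-B ligands, 9 EphA receptors and 5 EphB receptors. A consensus H3K27ac region belonged to a member when its midpoint lay inside the gene, or when the gene had the closest transcription start site (TSS), no more than 100 kb away. By this rule 65 of 18272 regions in prefrontal cortex (PFC), 103 of 16201 in hippocampus, 80 of 13788 in hypothalamus and 366 of 60013 in striatum were member regions, or 0.356, 0.636, 0.58 and 0.61% of each list.

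Semaphorins are secreted or membrane-bound proteins that steer growing axons, and plexins are their main receptors, with neuropilins as co-receptors for the secreted class 3 semaphorins. Ephrins are ligands held on the cell surface, by a lipid anchor in ephrin-A proteins and by a transmembrane segment in ephrin-B proteins, and Eph receptors are the receptor tyrosine kinases that bind them. Both systems pattern connections during development and stay active at adult synapses, where they act on dendritic spines and on plasticity. H3K27ac, acetylation of lysine 27 of histone H3, marks active promoters and enhancers, so that it maps which regulatory DNA of these genes is in use in a cell population.

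The libraries came from wild type C57BL/6NTac mice whose dams received morphine at 10 mg/kg/day (MOR) or saline (SAL) by osmotic minipump. The pups were raised by drug-naive surrogates and received 10 mg/kg morphine or saline under the skin 2 times a day from postnatal day 1 to 14, and as adults they were given lipopolysaccharide (LPS, a bacterial cell wall component that triggers inflammation) or saline. Brain tissue was punched out 2 h after that injection and NeuN+ neuronal nuclei were sorted, about 10000 for each library, and males and females of the group SAL-SAL and of the treated groups MOR-SAL, SAL-LPS and MOR-LPS (perinatal treatment first, adult challenge second) were profiled by H3K27ac MOWChIP-seq, a low-input chromatin immunoprecipitation. The libraries used numbered 8, 9, 11 and 14 in PFC, 11, 11, 12 and 10 in hippocampus, 8, 12, 11 and 10 in hypothalamus and 10, 7, 13 and 15 in striatum, in that order of groups, from 72 animals in all. All values come from peak lists of single libraries, which hold no read counts, so that the read depth behind a value is unknown.

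Lists ranged from 10811 to 143527 peaks, and 1 PFC SAL-SAL list of 4371 peaks was left out. The lists of 2 hippocampus SAL-LPS males were identical and were counted as 1 sample. The 10000 peaks of highest −log10 p of each library, called its top list here, put all libraries on an equal length, and a promoter or region that overlapped one of them is called occupied. Promoter fits in lists of equal length use these top lists. Treatment fits in lists of equal length instead cut each list to the shortest of its brain region. That was 11306 peaks in PFC, 13021 in hippocampus, 20170 in hypothalamus and 10811 in striatum. The median share of libraries with an occupied promoter over 10 neuron markers was 56.0, 39.8, 40.2 and 36.7% in PFC, hippocampus, hypothalamus and striatum. Snap25 was the highest of them, at 97.6, 88.6, 70.7 and 80%, and Syp was at 4.76, 9.09, 0 and 2.22%. Of 8 astrocyte markers 5 were at 0 in each brain region, but Slc1a2 was occupied in 14.3, 63.6, 34.1 and 13.3% of libraries. All 7 of 7 microglia markers were at 0 in PFC, hypothalamus and striatum. In 1 PFC and 1 striatum SAL-SAL library 100% of the oligodendrocyte marker promoters were occupied. Against the labels, the dopamine receptor gene Drd1 was occupied in 69.0% of PFC libraries and 31.1% of striatum libraries, and 23 of 42 PFC libraries had a higher share of striatum than of cortex marker promoters. In hypothalamus libraries 7 of 8 hypothalamus markers were at 0, among them Avp, Pomc, Pmch and Agrp, and Hcrt was occupied in 29.3%. PFC libraries were also made with another library kit than the other 3 brain regions, so kit and brain region cannot be told apart there. In sorted bulk nuclei, fewer nuclei of a type and less acetylation per nucleus cannot be told apart.

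The number of regions differed widely between member genes. In the striatum list Ephb1 held 49 regions, Epha4 held 38, Sema6d held 36, Plxna2 held 29, Plxna4 held 23 and Epha6 held 19. Set against gene length, Epha4 held 21 regions per 100 kb of gene body (31 regions in 148 kb), beside 14.1 in Plxna2, 11.1 in Ephb1, 9.07 in Epha7, 5.88 in Sema6d and 5.18 in Plxna4, so the long Sema6d and Plxna4 were less dense than Epha4 and Plxna2. The highest density, 22.1 per 100 kb, was that of the short Efna3, which held 2 regions. Regions were found for 24 of the 51 genes in PFC, 32 in hippocampus, 30 in hypothalamus and 45 in striatum, where the list is longest. Epha2, Ephb4, Efnb1, Plxna3, Plxnb3 and Sema3d had no region in any of the 4 lists. Promoter regions, within 1 kb of a TSS, made up 13.1% of member regions in striatum against 20.3% of all regions there, and 24.6% against 31.4% in PFC. In hippocampus the share was 25.2% beside 25.1% of all regions, and in hypothalamus 36.2% beside 33.4%.

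**Figure D1:**
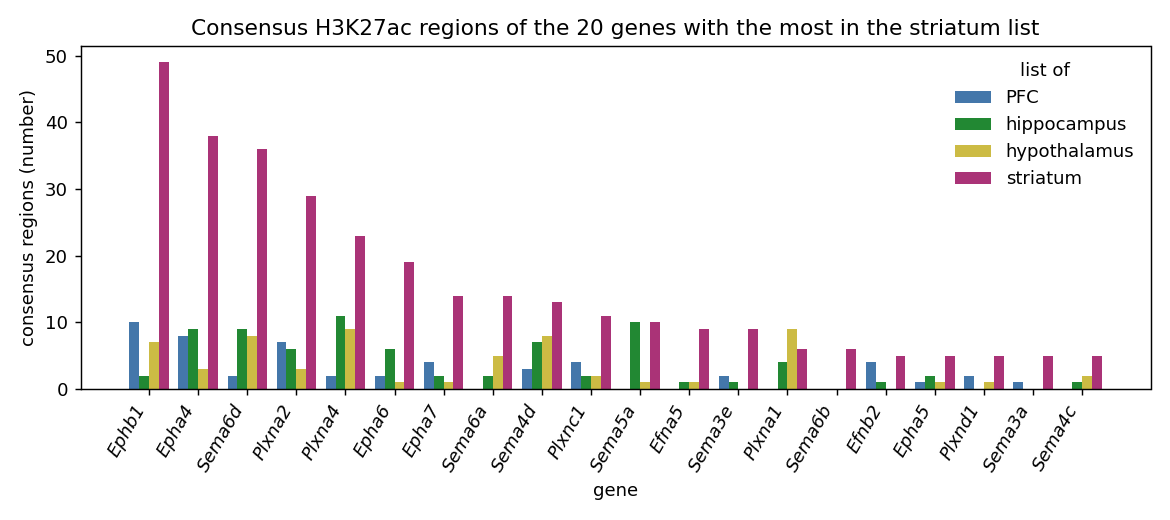
Number of consensus H3K27ac regions (vertical axis) of the 20 member genes with the most regions in the striatum list (horizontal axis), with 1 bar for each of the 4 consensus lists. Ephb1 leads in striatum with 49 regions and in PFC with 10, whereas Plxna4 leads in hippocampus with 11.

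The promoter of each member, taken as 1 kb on each side of the TSS of any coding transcript, was then compared across the 4 brain regions, which asks where each guidance gene carries the mark in adult neurons. The Eph receptor genes Epha4, Epha5 and Epha6, the plexin gene Plxna2 and the semaphorin gene Sema4b were the most often occupied, with top-list peaks in 104, 89, 97, 83 and 90 of the 172 libraries. Epha8, Efna5, Plxna3 and Sema3c were occupied in none, and Epha2 had no promoter peak of any height in any library. The mean share of libraries with an occupied promoter was 13.9% over the 51 members in PFC, 14.1% in hippocampus, 17.4% in hypothalamus and 11.2% in striatum, beside 16.6, 9.79, 12.1 and 11.5% over all protein-coding genes.

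**Figure D2:**
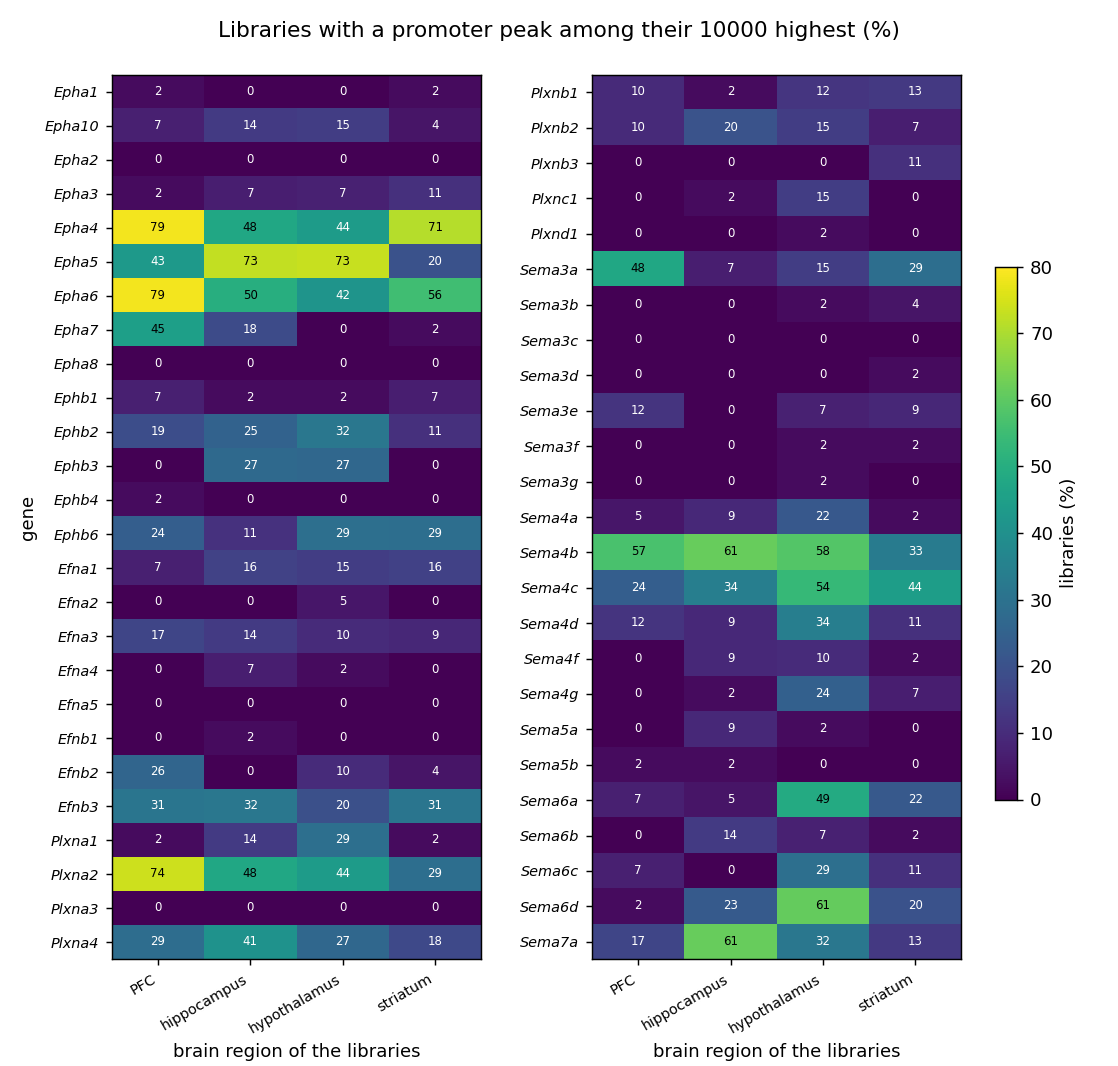
Share of libraries (color and printed number, %) in which the promoter of a member gene (rows) overlapped one of the 10000 highest peaks, for the libraries of each brain region (columns). Epha4, Epha6 and Plxna2 are brightest in PFC, Epha5 in hippocampus and hypothalamus, and Sema6d and Sema6a in hypothalamus.

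Differences between brain regions were tested in 2 ways that had to give the same direction. The first was a limma fit of percentile ranks (0 to 100 within a library, from the highest −log10 p at the promoter), on the whole lists and on lists of equal length. The second was an exact conditional test of occupancy stratified by sex, for promoters occupied in 20 to 80% of the libraries compared. The rank fit alone was not used for calls, since it called all 5415 promoters that had no peak in any library in each of the 3 pairs with PFC, at median shifts of 3.37 to 4.84 points, and none of them in the other 3 pairs. It called 24 of 51 members for hippocampus against PFC (59.7% of all promoters), 24 for hypothalamus against PFC (63.1%), 15 for striatum against PFC (59%), 10 for hypothalamus against hippocampus (14.7%), 13 for striatum against hippocampus (11.4%) and 14 for striatum against hypothalamus (9.26%). By all 3 criteria 4 of 12 tested members differed for hippocampus against PFC (45.3% of all promoters tested), 7 of 16 for hypothalamus against PFC (43.6%) and 1 of 11 for striatum against PFC (31.4%). For hypothalamus against hippocampus it was 1 of 16 (15%), for striatum against hippocampus 1 of 11 (10%) and for striatum against hypothalamus 2 of 15 (6.52%). These counts cover the members whose promoters were neither rare nor near universal, and a promoter marked in 1 brain region only can pass that filter through that region alone. Genes named for a difference below passed all 3 criteria unless said otherwise.

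Among the semaphorins, hypothalamus had the highest occupancy for Sema6d and Sema6a, transmembrane class 6 ligands that bind A-type plexins. The Sema6d promoter was occupied in 61.0% of hypothalamus libraries, 22.7% of hippocampus, 20% of striatum and 2.38% of PFC libraries. Its rank in hypothalamus was 27.7 ± 3.53 points (SE) above PFC (limma adjusted p = 2.36e-11; exact occupancy test adjusted p = 5.82e-08) and striatum was 12.2 ± 3.48 points below hypothalamus (rank difference −12.2, limma adjusted p = 0.0102; exact test adjusted p = 0.0052). Hypothalamus was not called against hippocampus, since the rank fit missed the threshold (7.92 ± 3.48 points, limma adjusted p = 0.122) although occupancy differed (38.2 points, exact test adjusted p = 0.00444). The Sema6a promoter was occupied in 48.8% of hypothalamus libraries but in 22.2% of striatum, 7.14% of PFC and 4.55% of hippocampus libraries, and its rank in hypothalamus was 22.4 ± 4.23 points above hippocampus (limma adjusted p = 9.76e-06). Striatum was not called against hypothalamus for Sema6a, where occupancy differed by −26.6 points (exact test adjusted p = 0.0915). The promoter of Sema6d is shown because it had the widest gap in occupancy of the differences called. That gap pools all coding starts of the gene, and the DNA printed covers 1 of them. The consensus region over this start was occupied in 34.1% of hypothalamus and 11.4% of hippocampus libraries. Another region, at chr2:124606962-124614800, holds 3 starts and was occupied in 41.5% of hypothalamus and 2.38% of PFC libraries. Capitals mark GC boxes (GGGCGG or its complement), the binding sequence of Sp1-type factors, here and in the other promoters printed.

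Sema6d promoter, chr2:124089719-124090018, plus strand: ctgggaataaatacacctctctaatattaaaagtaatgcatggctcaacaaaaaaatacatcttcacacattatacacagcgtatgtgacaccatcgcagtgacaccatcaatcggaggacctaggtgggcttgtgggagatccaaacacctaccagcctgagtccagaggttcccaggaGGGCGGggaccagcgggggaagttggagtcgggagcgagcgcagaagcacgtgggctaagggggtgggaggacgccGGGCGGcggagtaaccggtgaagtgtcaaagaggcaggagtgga

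Sema7a, a lipid-anchored semaphorin, was occupied most often in hippocampus, at 61.4% of libraries against 31.7% in hypothalamus, 16.7% in PFC and 13.3% in striatum. Hippocampus ranked 18.3 ± 4.07 points above PFC (limma adjusted p = 0.00015) and striatum 14.4 points below hippocampus (rank difference −14.4 ± 4.02, limma adjusted p = 0.00625). Sema3a, the secreted repellent that collapses growth cones through neuropilin and plexin-A, was occupied in 47.6% of PFC, 28.9% of striatum, 14.6% of hypothalamus and 6.82% of hippocampus libraries. Its rank differences from PFC were −31.6 ± 4.44 points in hippocampus (limma adjusted p = 1.31e-09) and −30.3 ± 4.52 points in hypothalamus (limma adjusted p = 8.71e-09). Sema4c, a transmembrane ligand of plexin-B2, was occupied in 53.7% of hypothalamus and 23.8% of PFC libraries, a rank difference of 10.1 ± 4.39 points (limma adjusted p = 0.0373), and Sema4b was occupied in 57.1, 61.4, 58.5 and 33.3% of PFC, hippocampus, hypothalamus and striatum libraries with no difference called. The Sema7a promoter is printed as the hippocampus counterpart, and here capitals also mark the E-box CAGCTG, a core bound by basic helix-loop-helix factors.

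Sema7a promoter, chr9:57939862-57940161, plus strand: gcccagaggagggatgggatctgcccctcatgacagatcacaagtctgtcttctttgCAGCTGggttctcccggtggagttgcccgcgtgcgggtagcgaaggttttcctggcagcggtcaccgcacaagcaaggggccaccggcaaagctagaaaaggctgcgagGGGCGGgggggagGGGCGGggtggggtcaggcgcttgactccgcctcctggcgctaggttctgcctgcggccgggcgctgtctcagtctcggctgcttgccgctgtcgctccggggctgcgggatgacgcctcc

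Other semaphorin promoters were seldom occupied. Sema4g was occupied in 24.4% of hypothalamus libraries and in none of PFC, and Sema4d in 34.1% of hypothalamus libraries and 9.09 to 11.9% elsewhere. Sema4a and Sema6c were also occupied most often in hypothalamus, at 22.0 and 29.3% of libraries. Of the class 3 genes, Sema3b, Sema3c, Sema3d, Sema3f and Sema3g were occupied in at most 4.44% of the libraries of any brain region, and Sema3e in at most 11.9%. Sema4f, Sema5a, Sema5b and Sema6b were occupied in at most 13.6%.

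Among the plexins, Plxna2 was the leading promoter, occupied in 73.8% of PFC libraries, 47.7% of hippocampus libraries, 43.9% of hypothalamus libraries and 28.9% of striatum libraries, with no pair called. Plxna4, which pairs with Plxna2 as a receptor of class 6 semaphorins, was occupied in 28.6, 40.9, 26.8 and 17.8% of libraries in the same order. Plxna1 was occupied in 29.3% of hypothalamus and 13.6% of hippocampus libraries and in 2.38% of PFC and 2.22% of striatum libraries. B-type plexins, the receptors of class 4 semaphorins, were rarer, with Plxnb1 at 2.27 to 13.3%, Plxnb2 at 6.67 to 20.5% and Plxnb3 at 11.1% in striatum alone. Plxnc1, the receptor of Sema7a, was occupied in 14.6% of hypothalamus libraries, in 2.27% of hippocampus libraries, and in none of PFC and striatum. Plxnd1, the receptor of Sema3e, was occupied in 2.44% of hypothalamus libraries and in none elsewhere.

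Among the ephrins, Efnb3, a ligand of EphB receptors and Epha4, was occupied in 31.0, 31.8, 19.5 and 31.1% of PFC, hippocampus, hypothalamus and striatum libraries. Efnb2 was occupied in 26.2% of PFC, 9.76% of hypothalamus, 4.44% of striatum and no hippocampus libraries. Efna1 lay between 7.14 and 15.9% and Efna3 between 8.89 and 16.7%, while Efnb1, Efna2 and Efna4 reached 2.27, 4.88 and 6.82% at most. The consensus region at the Efnb2 promoter, wider than 1 kb on each side of the TSS, was occupied in 64.3% of PFC libraries and 4.55% of hippocampus libraries (difference −59.7 points, exact test adjusted p = 2.89e-08).

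Among the Eph receptors, the A class carried the strongest promoters. Epha4, a receptor that binds both ephrin classes and acts in axon sorting and spine retraction, was occupied in 78.6% of PFC, 71.1% of striatum, 47.7% of hippocampus and 43.9% of hypothalamus libraries, and hypothalamus differed from PFC by −11.4 ± 3.37 points of rank (limma adjusted p = 0.00446). Epha6 followed the same order at 78.6, 55.6, 50 and 41.5%. Epha5 had another order, with 73.2% of hypothalamus and 72.7% of hippocampus libraries occupied beside 42.9% of PFC and 20% of striatum libraries. Striatum ranked 14.1 points below hypothalamus for Epha5 (rank difference −14.1 ± 3.59, limma adjusted p = 0.00291; exact test adjusted p = 0.000119). Epha7 was occupied in 45.2% of PFC and 18.2% of hippocampus libraries but in 1 of 45 striatum libraries, or 2.22%, and in none of 41 hypothalamus libraries. Its rank differences from PFC were −32.6 ± 4.57 points in hypothalamus (limma adjusted p = 9.14e-10), −23.8 ± 4.46 points in striatum (limma adjusted p = 1.79e-05) and −12.5 ± 4.49 points in hippocampus (limma adjusted p = 0.012). The Epha5, Epha7 and Epha4 promoters are printed because these 3 related receptors differed in opposite directions, and all 3 hold GC boxes.

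Epha5 promoter, chr5:84417333-84417632, minus strand: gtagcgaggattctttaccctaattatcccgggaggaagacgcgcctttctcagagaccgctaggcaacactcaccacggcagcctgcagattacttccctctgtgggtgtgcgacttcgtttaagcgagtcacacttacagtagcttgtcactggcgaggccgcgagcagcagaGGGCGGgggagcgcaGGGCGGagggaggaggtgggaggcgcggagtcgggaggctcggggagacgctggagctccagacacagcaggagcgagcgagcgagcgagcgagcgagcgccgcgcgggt
Epha7 promoter, chr4:28812881-28813180, plus strand: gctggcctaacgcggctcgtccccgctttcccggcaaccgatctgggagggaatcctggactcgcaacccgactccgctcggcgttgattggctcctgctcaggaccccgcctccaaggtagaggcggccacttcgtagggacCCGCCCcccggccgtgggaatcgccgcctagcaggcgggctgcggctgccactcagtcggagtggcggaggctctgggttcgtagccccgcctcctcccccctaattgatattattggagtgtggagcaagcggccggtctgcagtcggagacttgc
Epha4 promoter, chr1:77515039-77515338, minus strand: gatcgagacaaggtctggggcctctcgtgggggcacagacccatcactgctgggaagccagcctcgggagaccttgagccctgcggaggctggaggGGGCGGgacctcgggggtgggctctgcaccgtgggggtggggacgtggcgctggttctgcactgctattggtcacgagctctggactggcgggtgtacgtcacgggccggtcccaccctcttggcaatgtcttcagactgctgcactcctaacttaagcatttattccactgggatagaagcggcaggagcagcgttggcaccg

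EphB receptors bind ephrin-B ligands at excitatory synapses, where Ephb2 gathers NMDA receptors. Ephb3 was occupied in 27.3% of hippocampus and 26.8% of hypothalamus libraries and in none of PFC and striatum. It had the widest range of mean ranks of all members, 78.3 ± 17.1 (SD) in hippocampus, 74.9 ± 20.6 in hypothalamus, 42.3 ± 18.5 in striatum and 41.0 ± 15.8 in PFC, but it was too rarely occupied in most pairs for the occupancy test. Ephb2 was occupied in 19.0 to 31.7% of libraries in PFC, hippocampus and hypothalamus and in 11.1% in striatum, and Ephb6 in 11.4 to 29.3%. Ephb1, which had the most regions of any member, had an occupied promoter in only 2.27 to 7.14% of libraries. Epha3 and Epha10 reached 11.1 and 14.6% at most, and Epha1 and Ephb4 2.38%. Epha2, an epithelial and tumor-associated receptor, stayed without a peak in all 172 libraries, and its promoter, which is printed as the unmarked case, holds the cAMP response element TGACGTCA beside 1 GC box.

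Epha2 promoter, chr4:141300971-141301270, plus strand: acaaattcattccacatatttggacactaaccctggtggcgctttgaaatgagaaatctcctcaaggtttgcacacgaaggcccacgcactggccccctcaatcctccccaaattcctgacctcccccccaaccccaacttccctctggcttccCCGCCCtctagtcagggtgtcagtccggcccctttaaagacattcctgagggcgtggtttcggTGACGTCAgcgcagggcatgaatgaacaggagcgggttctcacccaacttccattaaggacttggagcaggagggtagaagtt

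The promoter sequences come from RefSeq (GRCm38.p6), as 300 bases around 1 start of each gene, and 45 of the 51 members had such a sequence. Member promoters were richer in CpG than promoters in general, with a median of 22 CpG sites and a GC content of 64.7% beside 7 sites and 52.7% over 27025 promoters. A GC box stood in 75.6% of member promoters and 35.9% of all, and a TATA box (TATAAA) in 2.22% and 14.2%. The other motifs searched on both strands were as follows, with the share of member promoters first and the share of all promoters second. The cAMP response element was in 2.22 and 1.88%, the AP-1 site TGANTCA in 4.44 and 7.93%, the E-box CAGATG in 8.89 and 17.2% and the E-box CAGCTG in 15.6 and 16.1%. The MEF2 core TATTTTTA was in none of the member promoters and 2.71% of all, and the REST core TTCAGCACC in none and 0.359%. A motif match describes the letters and not binding.

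All consensus regions of the members, at promoters and away from them, were compared next, which adds the enhancers within and around the genes. The counts below therefore include promoter regions. For this, the 4 consensus lists were merged where they overlapped by at least 1 bp, which gave 59310 regions, 362 of them at members. Of these 362, 213 came from the striatum list alone (58.8%, beside 55.1% of all merged regions) and 24 were in all 4 lists (6.63%, beside 9.33%). Between 20 and 80% of libraries were occupied in at least 1 pair of brain regions for 76 member regions, and these were tested. The exact conditional test was stratified by sex and adjusted over all regions tested. The limits of 20 and 80% apply to the libraries of both brain regions together. A region with few or no occupied libraries in 1 brain region is therefore tested only if many are occupied in the other. Its call then follows largely from the filter, and the p-value is no separate support for the difference. Among the regions named below, this holds for such pairs at Sema5a, Ephb2, Ephb1 and Plxnc1, among others. The count of regions that differed was 21 of 40 for hippocampus against PFC (14 higher and 7 lower, beside 67.3% of all merged regions tested, 25.6% higher and 41.7% lower), 25 of 41 for hypothalamus against PFC (13 higher and 12 lower, beside 59.2%, 18% higher and 41.2% lower), 7 of 39 for striatum against PFC (4 higher and 3 lower, beside 28.7%, 7.55% higher and 21.2% lower), 25 of 56 for hypothalamus against hippocampus (49.3%), 25 of 45 for striatum against hippocampus (51.1%) and 19 of 50 for striatum against hypothalamus (33.5%). In striatum against hippocampus 8 member regions were higher and 17 lower (25.6 and 25.5% of all), with a median difference of −11.7 points of occupancy beside 3.94 over all regions, and in striatum against hypothalamus 7 were higher and 12 lower (21.3 and 12.2% of all), with a median of −6.04 beside 2.49. In hypothalamus against hippocampus 9 were higher and 16 lower (20 and 29.4% of all), with a median of −6.24 beside −0.776. The brain regions share animals, and this test does not pair them.

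Ephb2 had 3 intronic regions that were occupied in more libraries of hippocampus than of any other brain region. The strongest, at chr4:136739305-136746024, was occupied in 33 of 44 hippocampus libraries (75.0%), 14 of 41 hypothalamus libraries (34.1%), 9 of 42 PFC libraries (21.4%) and 2 of 45 striatum libraries (4.44%). Striatum differed from hippocampus by −70.6 points (exact test adjusted p = 2.07e-10) and hippocampus from PFC by 53.6 points (exact test adjusted p = 3.27e-06). A neighbor at chr4:136754240-136758824 was occupied in 59.1% of hippocampus and 43.9% of hypothalamus libraries, in 8.89% of striatum and in no PFC library. Hypothalamus was not called against hippocampus there (−15.2 points, exact test adjusted p = 0.288), and it differed from PFC (43.9 points, exact test adjusted p = 1.12e-06) and from striatum (striatum against hypothalamus −35 points, exact test adjusted p = 0.00196). The third, at chr4:136748712-136753461, was occupied in 40.9% of hippocampus, 24.4% of hypothalamus, 2.22% of striatum and no PFC libraries, and hypothalamus was not called against hippocampus (−16.5 points, exact test adjusted p = 0.254).

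Plxna4 showed the same order. A region deep in an intron, at chr6:32438592-32454362, was occupied in 65.9% of hippocampus, 48.8% of hypothalamus, 9.52% of PFC and 4.44% of striatum libraries. Striatum differed from hippocampus by −61.5 points (exact test adjusted p = 1.14e-08) and from hypothalamus by −44.3 points (exact test adjusted p = 3.12e-05). Plxna2, its partner receptor, had an intronic region at chr1:194674342-194692063 that was occupied in 77.3% of hippocampus libraries and 16.7% of PFC, 26.8% of hypothalamus and 33.3% of striatum libraries, whereas its promoter was occupied most often in PFC. Hippocampus was also highest at an intron of Sema5a (chr15:32272417-32282699, 43.2% of libraries and 0 to 12.2% elsewhere), upstream of Efna5 (chr17:62946081-62949695, 47.7% and 2.38 to 9.76% elsewhere), upstream of Sema7a (chr9:57930458-57935869, 40.9% and 2.22 to 2.44% elsewhere) and in an intron of Sema4d (chr13:51764141-51785837, 90.9% and 33.3 to 68.3% elsewhere). Each of these 4 differed from PFC, with exact test adjusted p = 2.05e-06, 3.31e-06, 3.6e-05 and 2.48e-07.

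Other members were shared by PFC with hippocampus or with striatum. An intron of Epha6 907242 bp from its TSS, at chr16:59692486-59698006, was occupied in 56.8% of hippocampus and 38.1% of PFC libraries but in 1 of 41 hypothalamus and 1 of 45 striatum libraries (striatum against hippocampus −54.6 points, exact test adjusted p = 8.61e-08). An intron of Ephb1, at chr9:101973987-101980146, had the opposite partner, with 46.7% of striatum and 38.1% of PFC libraries occupied, 2 of 41 hypothalamus libraries and none of 44 hippocampus libraries (striatum against hippocampus 46.7 points, exact test adjusted p = 3.33e-07). The part that the 23 PFC libraries with more striatum than cortex markers have in these PFC values was not tested, since without them hypothalamus against PFC fell outside the occupancy limits at both regions.

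Striatum led at 2 regions upstream of genes. A region 92131 bp upstream of Plxnc1, at chr10:95036966-95042958, was occupied in 23 of 45 striatum libraries (51.1%), 14.3% of PFC libraries and 1 library each of hippocampus and hypothalamus (striatum against hippocampus 48.8 points, exact test adjusted p = 1.88e-07). A region 4560 bp upstream of Sema6b, at chr17:56144903-56147737, was occupied in 51.1% of striatum libraries, 14.6% of hypothalamus, 6.82% of hippocampus and 2.38% of PFC libraries (striatum against PFC 48.7 points, exact test adjusted p = 1.72e-05). Hypothalamus led at an intron of Sema6d (chr2:124233364-124241380, 70.7% of libraries and 21.4 to 42.2% elsewhere), upstream of Sema4c (chr1:36579267-36581978, 43.9% and 2.38 to 15.9% elsewhere) and downstream of Plxna1 (chr6:89302479-89306795, 39.0% and 0 to 11.1% elsewhere). PFC led at an intron of Sema3e (chr5:14089807-14095389, 42.9% of libraries beside 2.44 to 20%).

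**Figure D3:**
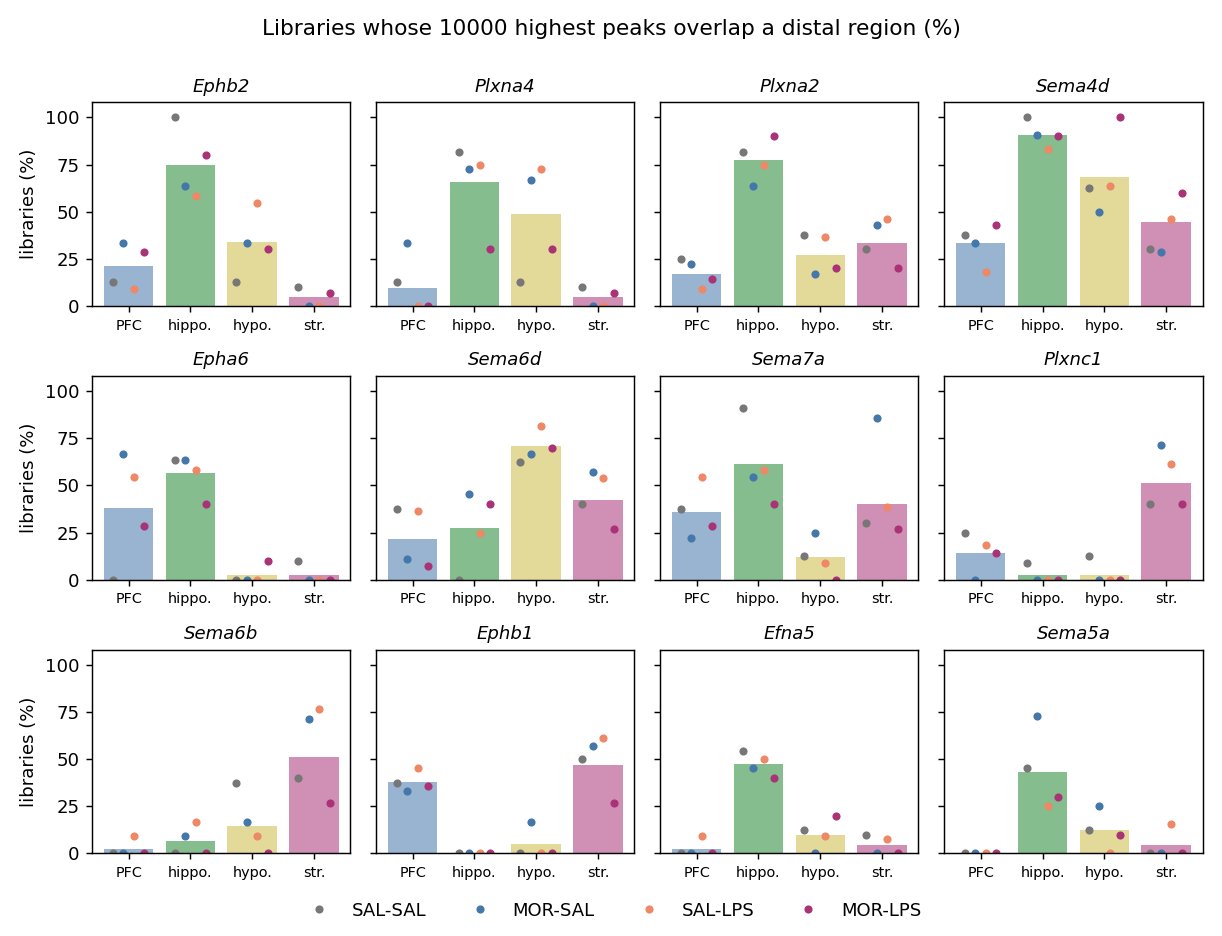
Share of libraries (vertical axis, %) in which 1 region away from a promoter overlapped one of the 10000 highest peaks, by brain region (bars), with the share in each treatment group as points, for the 12 genes with the widest spread among regions that differed, chromosome 18 left out. Ephb2, Plxna4 and Plxna2 peak in hippocampus, Sema6d in hypothalamus, and Plxnc1 and Sema6b in striatum, and at Ephb2 the hippocampus points of all 4 treatment groups lie between 58.3 and 100%.

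Within the treatment groups the brain region order was kept at some of these regions. At the Ephb2 region at chr4:136739305 the hippocampus share was 100% in SAL-SAL, 63.6% in MOR-SAL, 58.3% in SAL-LPS and 80% in MOR-LPS, and the striatum share was 10, 0, 0 and 6.67%. This region and the Plxna4 region below were picked for their wide spread over these same libraries, so the split is no separate test. At the Plxna4 region the hippocampus share was 81.8, 72.7, 75.0 and 30% in the same order and the hypothalamus share 12.5, 66.7, 72.7 and 30%, so these brain regions stood apart in SAL-SAL and lay close in MOR-SAL, SAL-LPS and MOR-LPS. With SAL-SAL libraries alone, 8 to 11 in a brain region, 7 differences were called in all (0 to 13.5% of all regions tested in a pair), among them this Ephb2 region for hippocampus against PFC (exact test adjusted p = 0.0168) and for striatum against hippocampus (exact test adjusted p = 0.00487), and the Plxna4 region for striatum against hippocampus (exact test adjusted p = 0.0278). Without the 23 PFC libraries that had more striatum than cortex markers, the promoter region of Epha5 no longer differed from PFC in hippocampus (exact test adjusted p = 0.461) or hypothalamus (0.856). The same held for the promoter regions of Epha4 (exact test adjusted p = 0.353 and 0.395) and Sema7a (0.147 and 0.696), and in hypothalamus for those of Sema4c (0.388) and Sema6a (0.123), and a region of Epha7 no longer differed in striatum (0.127). The regions upstream of Sema7a (hippocampus, exact test adjusted p = 0.00272) and of Sema4c (hypothalamus, 0.0115) kept their calls against PFC. Sema3a kept its calls (exact test adjusted p = 0.000442 and 0.00765), as did Efnb2 in hypothalamus and striatum (0.0163 and 0.0255) and the Sema6d intron in hypothalamus (5.97e-06), and Ephb2, Plxna4, Plxna2, Sema5a and Efna5 kept their calls for hippocampus against PFC (exact test adjusted p = 0.0224, 0.00315, 0.000868, 0.00176 and 0.00525).

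The DNA at the highest summit of 6 regions, which stand for those found mainly in hippocampus or striatum and those shared by a pair of brain regions, is printed below as 200 bases of the plus strand (GRCm38 genome of RefSeq, the same build as mm10), with motif matches in capitals. The Ephb2 window holds TTCAGCACC, a core of the motif bound by the repressor REST, found in 0.256% of all 59306 windows and 0.552% of the 362 member windows. The Plxna4 window holds TATAAA (9.78% of all windows), the Plxnc1 window the E-box CAGATG (16.1%) and the Sema6b window the E-box CAGCTG (12%). The Epha6 and Ephb1 windows hold none of the 8 motifs. All 4 intronic windows lie outside exons.

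Ephb2 intron, chr4:136743464-136743663: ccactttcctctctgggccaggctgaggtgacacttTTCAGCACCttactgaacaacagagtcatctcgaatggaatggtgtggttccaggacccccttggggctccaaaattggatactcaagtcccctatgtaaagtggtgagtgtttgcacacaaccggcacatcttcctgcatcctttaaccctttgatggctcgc
Plxna4 intron, chr6:32443974-32444173: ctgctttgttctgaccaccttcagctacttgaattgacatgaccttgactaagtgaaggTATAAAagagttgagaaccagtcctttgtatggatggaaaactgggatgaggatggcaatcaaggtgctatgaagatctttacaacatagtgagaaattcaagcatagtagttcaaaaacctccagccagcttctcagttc
Epha6 intron, chr16:59693971-59694170: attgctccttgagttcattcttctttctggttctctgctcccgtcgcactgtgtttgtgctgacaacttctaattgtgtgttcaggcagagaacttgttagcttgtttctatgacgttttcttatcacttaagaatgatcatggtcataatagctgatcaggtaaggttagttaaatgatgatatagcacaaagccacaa
Ephb1 intron, chr9:101976598-101976797: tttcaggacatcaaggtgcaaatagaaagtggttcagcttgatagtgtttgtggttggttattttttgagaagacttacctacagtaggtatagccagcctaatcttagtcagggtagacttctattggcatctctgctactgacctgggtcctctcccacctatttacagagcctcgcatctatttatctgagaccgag
Plxnc1 upstream, chr10:95040626-95040825: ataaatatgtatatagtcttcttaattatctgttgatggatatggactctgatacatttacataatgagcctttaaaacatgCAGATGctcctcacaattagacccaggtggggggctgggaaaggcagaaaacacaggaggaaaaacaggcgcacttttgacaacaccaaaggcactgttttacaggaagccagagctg
Sema6b upstream, chr17:56145892-56146091: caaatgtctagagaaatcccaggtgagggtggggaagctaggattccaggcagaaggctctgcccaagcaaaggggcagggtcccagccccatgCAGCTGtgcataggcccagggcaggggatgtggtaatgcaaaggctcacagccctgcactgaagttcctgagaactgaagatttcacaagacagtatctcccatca

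Treatment was compared within each brain region, which asks whether perinatal morphine, adult LPS or both moved the mark at guidance genes. Few member regions differed, and those were in hypothalamus and striatum when MOR-LPS was compared with either group that shared 1 of its treatments. In hypothalamus 4 of 80 member regions were called for MOR-LPS against SAL-LPS (1 higher and 3 lower, beside 4.31% of all regions, 2.63% higher and 1.68% lower) and 4 for MOR-LPS against MOR-SAL (2 higher and 2 lower, beside 3.84% of all, 2.33% higher and 1.51% lower). In striatum 4 of 366 were called for MOR-LPS against SAL-LPS (3 higher and 1 lower, beside 2.32% of all, 1.96% higher and 0.365% lower) and 2 for MOR-LPS against MOR-SAL (1 higher and 1 lower, beside 0.253% of all, 0.12% higher and 0.133% lower). Both comparisons share the MOR-LPS libraries. These are limma tests of the percentile rank of each region within its library, adjusted over all regions of the list. In PFC and hippocampus no member was called in any of the 5 comparisons, and unadjusted p values under 0.05 numbered 2 to 8 of 65 members in PFC and 8 to 10 of 103 in hippocampus. Over all regions, hippocampus gave 0.00617% for MOR-SAL against SAL-SAL, 0.00617% for the interaction and none elsewhere, and PFC gave none. The exact occupancy test called no member. It was not run for the interaction and was limited to regions occupied in 20 to 80% of the libraries compared. That left 8 of the 14 differences called by limma within its reach. Leaving out 1 library at a time gave 1 to 6 member calls for MOR-LPS against SAL-LPS in hypothalamus and 0 to 17 in striatum, with 0 reached without any 1 of 8 libraries and 17 without SAL-LPS female 10-4. Over all regions the calls then ranged from 205 to 1137 of 13788 in hypothalamus and from 0 to 3410 of 60013 in striatum. For MOR-SAL against SAL-SAL and SAL-LPS against SAL-SAL no member was called in hypothalamus (7 and 15 of 80 at an unadjusted p under 0.05) or striatum (23 and 21 of 366), and the interaction of both treatments gave none in limma either (15 and 57). Over all regions these shares were 0 and 0.305% in hypothalamus, 0.00667 and 0% in striatum, and 1.86 and 0.0167% for the interaction.

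The clearest treatment difference was in Ephb1. A region in an intron 8730 bp from its TSS, at chr9:102339495-102345963, had ranks of 39.7, 71.7 and 91.2 (lowest, median and highest) in the 10 hypothalamus MOR-LPS libraries and of 7.12, 26.7 and 64.1 in the 12 MOR-SAL libraries. SAL-LPS libraries had 6.15, 21.1 and 93.9 and SAL-SAL libraries 6.71, 16.1 and 88.6. All 10 MOR-LPS libraries had a peak there, beside 7 of 12 MOR-SAL, 5 of 11 SAL-LPS and 2 of 8 SAL-SAL libraries, and MOR-LPS overlapped MOR-SAL between ranks of 39.7 and 64.1, while 1 SAL-LPS and 2 SAL-SAL libraries ranked as high as the upper MOR-LPS libraries. The region rose by 40 ± 10.6 points from MOR-SAL to MOR-LPS (limma adjusted p = 0.0161) and did so in lists of equal length (36.8 points, limma adjusted p = 0.0334). It ranked 39.1 ± 10.6 points higher than SAL-LPS (limma adjusted p = 0.0188), which lists of equal length gave as 30.2 points (limma adjusted p = 0.0897). In lists of equal length 1 member was called for MOR-LPS against MOR-SAL (1.75% of all regions) and 0 for MOR-LPS against SAL-LPS (1.27%), and in striatum 0 in both (0.00333%). With the neuron, astrocyte and oligodendrocyte promoter shares of each library as terms, the difference from MOR-SAL was 34.0 points (limma adjusted p = 0.0759). Within the libraries that share the commonest style of peak names it was 33.8 points (limma adjusted p = 0.287). The labels do not say what the styles of the names stand for. The mean neuron share was 26.0 ± 20.7% (SD) in MOR-LPS, 39.2 ± 17.3% in MOR-SAL and 32.7 ± 19.0% in SAL-LPS libraries, and the oligodendrocyte share 9.0 ± 12.9, 4.17 ± 6.69 and 4.55 ± 6.88%.

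Other hypothalamus regions ranked lower in MOR-LPS. Downstream of Plxna1, at chr6:89285616-89287646, ranks were 5.52, 12.3 and 51.5 in MOR-LPS libraries, beside 19.1, 54.2 and 86.8 in SAL-LPS and 7.87, 55.0 and 93.8 in MOR-SAL libraries. Of the 10 MOR-LPS libraries 4 had a peak there, and the groups overlapped. The differences were −35.3 ± 10.6 points from SAL-LPS (limma adjusted p = 0.035) and −36.4 ± 10.6 points from MOR-SAL (limma adjusted p = 0.0293). Sema4d, the ligand of plexin-B1, had 1 region that ranked lower and 1 that ranked higher. In an intron 913 bp from a TSS, at chr13:51705884-51707715, MOR-LPS ranks were 13.3, 28.2 and 65.0 beside SAL-LPS ranks of 39.4, 76.8 and 95.7, with overlap (−37.1 ± 11.2 points, limma adjusted p = 0.0363). In another intron, at chr13:51771104-51781070, MOR-LPS ranks were 43.0, 91.0 and 97.7 beside MOR-SAL ranks of 15.0, 44.7 and 87.7, also with overlap (33.9 ± 10.6 points, limma adjusted p = 0.0446). A region 601 bp upstream of Efna5 ranked lower than in SAL-LPS (−27.6 ± 8.8 points, limma adjusted p = 0.0474), with a peak in 1 of 10 MOR-LPS and 7 of 11 SAL-LPS libraries. Libraries without a peak share a rank that falls with the length of the list, and the median list held 70449 peaks in MOR-LPS and 48152 in SAL-LPS. In lists of equal length the Efna5 difference was −15.8 points (limma adjusted p = 0.237). An intron of Plxna4, at chr6:32475558-32481724, ranked lower than in MOR-SAL (−34.9 ± 11.2 points, limma adjusted p = 0.0496). Lists of equal length gave no call at these regions, with differences of −24.7 and −25.3 points for Plxna1 (limma adjusted p = 0.18 and 0.172), −32.6 and 35 for the Sema4d introns (0.102 and 0.0724) and −36.7 for Plxna4 (0.064).

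In striatum the regions that ranked higher in MOR-LPS than in SAL-LPS were without a peak in most SAL-LPS libraries. Upstream of Sema4d, at chr13:51815679-51817938, 9 of 15 MOR-LPS and 1 of 13 SAL-LPS libraries had a peak, with ranks of 21.3, 61.9 and 98.4 beside 18.0, 30 and 69.4 (35.2 ± 8.32 points, limma adjusted p = 0.0307). At the Efna1 promoter, chr3:89277027-89282723, 10 of 15 and 2 of 13 libraries had a peak, with ranks of 21.3, 61.6 and 99.9 beside 18.0, 30 and 80.4 (33.6 ± 8.97 points, limma adjusted p = 0.0345). At an intron of Sema6d 1168 bp from a TSS, chr2:124650023-124652467, 9 of 15 and 1 of 13 libraries had a peak (26.5 ± 7.1 points, limma adjusted p = 0.0345). In lists of equal length the Sema6d difference was 3.7 points (limma adjusted p = 0.72), that of Sema4d 22.1 (limma adjusted p = 0.0899) and that of Efna1 25.0 (limma adjusted p = 0.0787), so none was called. At all 3 regions the lowest MOR-LPS rank lay below the highest SAL-LPS rank, so the groups overlapped. In the same libraries the promoters of oligodendrocyte markers were occupied at a mean share of 30 ± 36.8% (SD) in MOR-LPS, with 5 of 15 libraries at 0, beside 8.46 ± 13.4% in SAL-LPS, with 6 of 13 at 0, 5.71 ± 5.35% in MOR-SAL and 11.0 ± 31.4% in SAL-SAL. With the marker shares as terms none of the 14 differences was called, and all 14 kept their direction.

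The region upstream of Sema6b, which was occupied most often in striatum, ranked lower in MOR-LPS than in SAL-LPS. Its ranks were 28.7, 74.8 and 98.3 beside 66.0, 91.0 and 99.1 (−23.9 ± 7.01 points, limma adjusted p = 0.0459; −24.0 points in lists of equal length, limma adjusted p = 0.27), and it was occupied in 26.7% of MOR-LPS, 76.9% of SAL-LPS, 71.4% of MOR-SAL and 40% of SAL-SAL libraries. Against MOR-SAL, a region over a TSS of Ephb3, at chr16:21210351-21211871, ranked lower in MOR-LPS (−29.2 ± 7.1 points, limma adjusted p = 0.0387), with a peak in none of 15 and in 4 of 7 libraries. In lists of equal length this difference was 0.0301 points (limma adjusted p = 0.991). A region 670 bp upstream of Sema3b, at chr9:107609899-107612820, ranked higher (39.3 ± 9.77 points, limma adjusted p = 0.0433), with ranks of 38.6, 92.2 and 98.7 in MOR-LPS beside 25.3, 36.4 and 71.7 in MOR-SAL. The other groups had ranks nearer to MOR-LPS, 22.2, 86.5 and 97.1 in SAL-SAL and 26.2, 74.6 and 99.6 in SAL-LPS, so the 7 MOR-SAL libraries had the lowest median of the 4 groups. Lists of equal length gave 38.9 points (limma adjusted p = 0.187).

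**Figure D4:**
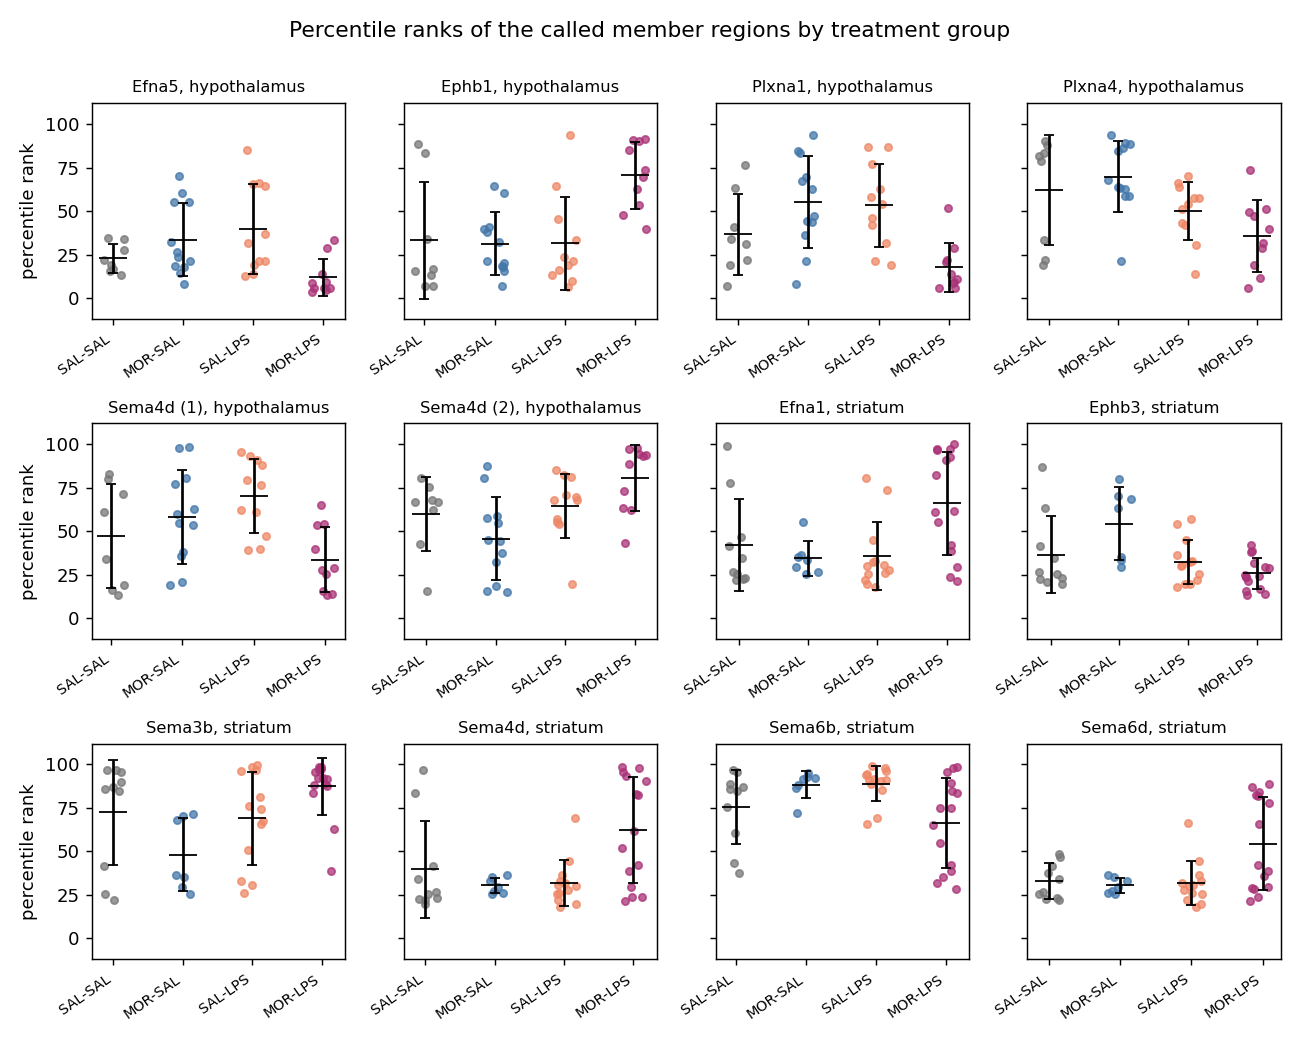
Percentile rank of the 12 called member regions in every library (points; vertical axis, 0 to 100) by treatment group (horizontal axis), with the group mean (wide bar) and SD (error bar). The Ephb1 region in hypothalamus has its lowest MOR-LPS library at 39.7, above most libraries of the other groups, whereas MOR-LPS libraries of striatum spread over most of the scale at Efna1, Sema4d and Sema6d; Sema4d (1) and (2) in hypothalamus are the regions at 51705884 and 51771104.

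Where nothing was called, the members of smallest p were as follows. In PFC the Efna1 promoter region ranked 28.4 ± 8.33 points higher in MOR-LPS than in SAL-LPS (limma adjusted p = 0.121), and regions of Epha4 differed by −25.7 ± 7.44 and 21.3 ± 6.54 points between SAL-LPS and SAL-SAL (limma adjusted p = 0.465 for both). In hippocampus a Sema4d intron ranked 32.0 ± 9.79 points higher in SAL-LPS than in SAL-SAL (limma adjusted p = 0.231) and an intron region of Plxna4 32.4 ± 9.2 points higher in MOR-SAL than in SAL-SAL (limma adjusted p = 0.622). In hypothalamus the region downstream of Plxna1 came nearest to an interaction of both treatments (−52.2 ± 15.8 points, limma adjusted p = 0.0512). In striatum an Epha5 region did so (−43.0 ± 12.4 points, limma adjusted p = 0.147).

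Over all members the median rank difference of MOR-LPS was below 0. It was, over 80 hypothalamus regions, −3.12 points against SAL-LPS and −3.77 against MOR-SAL, beside −0.34 and −0.29 over all regions, and in striatum it was −4.24 and −3.86 beside −1.47 and −0.96. Other guidance genes, among them neuropilins, netrins, Slits and Robos, had medians of −2.85 and −5.73 points over 105 hypothalamus regions and −4.15 and −3.52 over 439 striatum regions, in the same 2 comparisons. Of these, 2 hypothalamus regions ranked lower against SAL-LPS, and 1 higher and 4 lower against MOR-SAL, while in striatum 3 ranked higher and 3 lower against SAL-LPS and 1 lower against MOR-SAL. Regions of neuronal markers had medians of −12.59 and −10.63 points in hypothalamus and −8.25 and −6.87 points in striatum in the same comparisons. Between brain regions, merged regions of the other guidance genes differed as follows, with the shares of all regions in brackets. For hypothalamus against hippocampus 9 were higher and 37 lower of 72 tested (20 and 29.4%). For striatum against hippocampus 10 were higher and 33 lower of 71 (25.6 and 25.5%). For striatum against hypothalamus 10 were higher and 9 lower of 50 (21.3 and 12.2%). Against PFC, 32 were higher and 11 lower of 64 in hippocampus (25.6 and 41.7%). In hypothalamus it was 13 and 14 of 47 (18 and 41.2%), and in striatum 3 and 7 of 49 (7.55 and 21.2%).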

How the data were processed

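H3K27ac MOWChIP-seq peak lists of 174 libraries were deposited, and 172 were used, with 72 animals identified by the titles. The 32 input samples had no list here and were not analysed. Per the study's methods and submitters' notes, the authors trimmed reads (Trim Galore 0.6.7), aligned them to mm10 (Bowtie2 2.4.5) and called peaks against input with MACS2 2.2.7.1, and consensus regions of each brain region came from DiffBind 3.10.1. The deposited peak files give −log10 p, −log10 q, a fold enrichment, a display score and a summit per peak, and the deposited consensus files give positions only. No file holds read counts, so no interval or detection floor was computed, and depth is seen only as the number of peaks, 10811 to 143527 per library.

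Each consensus region was given the −log10 p of its highest peak (overlap of 1 bp or more; 0 without a peak), turned into a rank from 0 to 100 within the library. Ranks were fitted with limma 3.58.1 (R 4.3.3), with a mean-variance trend, treatment group and sex as terms, and Benjamini-Hochberg adjustment over all regions. Promoter ranks were fitted the same way over 21853 genes with brain region, treatment group and sex as terms. The exact conditional test of occupancy was two-sided, stratified by sex and run in R 4.3.3. The ranks were computed in Python 3.11.15 with scipy 1.17.1. Its use for promoter calls and the merged regions were chosen after seeing the data, because of the fault of the promoter rank fit. Both tests were checked on simulated data. Regions were named where called, or else as the members of smallest p in a comparison, and promoters by the range of their mean ranks. The members, marker lists and other guidance genes were chosen with earlier results of these data known. The alternatives were lists of equal length, other peak scores and thresholds, filters, terms for the number of peaks and marker shares, a replicate block, occupancy and single libraries left out. Several libraries of a group share an identifier prefix. Fits without a block count them as separate, so p-values measure the spread between these libraries and not between litters. Identifier prefixes, given as litters in the study's supplement, were nested in perinatal treatment, and the correlation within them was 0.0336 in PFC, 0.00141 in hippocampus, −0.0159 in hypothalamus and −0.00143 in striatum. Per the study's methods PFC libraries were prepared with another kit. In 1 PFC MOR-LPS female (12-2) the peaks carry the name of animal 12-0.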

Additional observations from a re-analysis of the deposited data

Results flagged for a closer look

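Of 24 groups tested for a sample far from the others, 3 held one, and chance gives about 1 in 20. At the region downstream of Plxna1, the hypothalamus MOR-LPS male 13-2 had a rank of 51.5, and the other 9 libraries of its group lay between 5.52 and 28.6. At the region upstream of Sema6b, the striatum MOR-SAL male 17-0 ranked 72.0, below the other 6 libraries at 86.7 to 94.9. At the Efna1 promoter, the striatum MOR-SAL male 8-0 ranked 55.2, above the other 6 at 25.3 to 36.4. It was the only 1 of the 7 libraries with a peak there (−log10 p of 3.81), and the others had the shared rank of libraries without a peak.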

How the results depend on the processing

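For MOR-LPS against SAL-LPS in hypothalamus the 4 member calls became 0 in lists of equal length, 0 with marker shares as terms, 2 in a fit of the groups compared only and 0 by occupancy. For MOR-LPS against MOR-SAL there they became 1 in lists of equal length, 2 with the number of peaks as a term, 0 with marker shares and 0 by occupancy, and the interaction gave 1 with ranks of fold enrichment. In striatum the 4 calls for MOR-LPS against SAL-LPS became 0 in lists of equal length, 9 with the number of peaks as a term, 0 with marker shares and 0 by occupancy. The 2 calls for MOR-LPS against MOR-SAL there became 0 in lists of equal length, 1 with a filter on regions with a peak in 20% of libraries, 0 with the number of peaks as a term, 0 with marker shares and 0 by occupancy. In alternatives chosen after seeing the data, the style of the peak names as a term gave 1 call for MOR-LPS against SAL-LPS in hypothalamus and 1 for the interaction, and libraries of the commonest style alone gave 0 for MOR-LPS against SAL-LPS and 0 for MOR-LPS against MOR-SAL. The occupancy test covered 8 of the 14 named differences, so its counts of 0 leave the others untested. The causes were not tested. Apart from lists of equal length, shares over all regions are not given for these alternatives, so their counts are no result about the members. Of the 14 named differences, all 14 kept their call with ranks of fold enrichment and with summits inside the region, 12 with peaks of −log10 q of at least 2, 9 with the number of peaks as a term and 1 in lists of equal length, where the Ephb3 difference reversed to 0.0301 points (limma adjusted p = 0.991).

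Leaving out 1 library at a time for MOR-LPS against SAL-LPS gave 1 to 6 member calls over 21 hypothalamus libraries and 0 to 17 over 28 striatum libraries, beside 205 to 1137 and 0 to 3410 calls over all regions. In hypothalamus 12 of them lowered the count by more than 1.5 times, to 1 without MOR-LPS females 15-1 and 16-4, MOR-LPS males 14-0 and 14-4, SAL-LPS females 10-0 and 3-1 or SAL-LPS male 1-2, and to 2 without MOR-LPS females 15-3 and 16-0, SAL-LPS females 10-2 and 9-1 or SAL-LPS male 11-0. In striatum it was 0 without MOR-LPS females 15-3, 16-0, 16-2 and 7-1, MOR-LPS male 14-4 or SAL-LPS females 10-0, 10-2 and 4-4, and 1 without SAL-LPS females 2-0, 3-1 and 9-3. It was 7 to 17 without MOR-LPS female 12-2, MOR-LPS males 13-0, 14-2, 17-1, 6-0 and 8-3, SAL-LPS female 10-4 or SAL-LPS males 1-4 and 5-2.

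With the identifier prefix as a replicate block, the counts were 5 and 4 in hypothalamus and 5 and 2 in striatum, and all 14 named differences kept their call. These counts also stand without shares over all regions and are no result about the members. With the animal as a replicate block, the promoter counts of the rank fit were 24, 25, 15, 10, 14 and 14 for the 6 pairs in the order hippocampus, hypothalamus and striatum against PFC, hypothalamus and striatum against hippocampus, and striatum against hypothalamus, beside 24, 24, 15, 10, 13 and 14 without it.

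In the same order of pairs, the promoter count with SAL-SAL libraries alone was 3, 5, 0, 9, 1 and 1. By occupancy alone, chosen after seeing the data, it was 7, 10, 2, 4, 2 and 2 of 12, 16, 11, 16, 11 and 15 members tested. The main rank fit called 59.7, 63.1, 59, 14.7, 11.4 and 9.26% of all promoters. Shares over all promoters are not given for the promoter alternatives in this paragraph, so their counts are no result about the members. Striatum against PFC gave 7 with a filter on promoters with a peak in 20% of libraries. Striatum against hippocampus gave 3 in lists of equal length, 20 with promoters of 2 kb on each side and 6 in libraries with an oligodendrocyte share of 0, and striatum against hypothalamus gave 7 in lists of equal length and 8 in libraries with an oligodendrocyte share of 0. For merged regions, whose alternatives were all chosen after seeing the data, SAL-SAL libraries alone gave 1, 0, 0, 1, 5 and 0 calls among 39 to 58 members tested, beside 9.09, 0, 0, 2.29, 13.5 and 0% of all regions. All deposited peaks gave 122, 142, 31, 95, 135 and 105 among 213 to 240 members tested, beside 57.7, 56.2, 22.2, 46.3, 48.7 and 35.7% of all regions. Libraries with an oligodendrocyte share of 0 gave 4 of 40 for striatum against PFC (14.8% of all), 13 of 50 for hypothalamus against hippocampus (40.8%) and 12 of 54 for striatum against hypothalamus (22.1%). The number of peaks of a library, the one trace of its depth, limits ranks of weak regions.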
